A study of Mus musculus with 26 samples.

Results

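Transcript levels were compared between immortalized mouse embryonic fibroblasts of the line WB that carried a human c-myc retroviral vector (3 arrays) and WB fibroblasts that carried the empty pBabe-puro vector (3 arrays). These are 6 of the 26 arrays of the series, and they were taken by their titles. The other arrays hold WB fibroblasts with a v-src vector (2 arrays) and the lines WA and WC with a c-myc, an empty or a v-src vector (3 arrays each). The study set these transformed fibroblasts against a signature of growth without anchorage found in human breast cancer lines. All 6 WB arrays share the immortalized parental line and a puromycin resistance vector. How WB was immortalized, whether it is 1 clone and how long the cells were kept after infection are not stated in these sources. The labels number the arrays of a group but do not say that they came from separate cultures, so the p-values measure only the spread between these arrays, which may be technical.

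Each array gave 1 MAS5 signal, a linear brightness, for each of 45101 probe sets. The signal of every array had a trimmed mean of 500, so a value is relative to its array, and a change in total RNA per cell cannot be seen. Of 18193 genes named by a probe set, 13018 passed a filter on low signal and were tested on log2(signal + 23) with limma. A gene is called where its Benjamini-Hochberg adjusted p over those 13018 genes was under 0.05. Changes are log2(signal + 23) with c-myc minus the same with empty vector, which understates the change of genes near the added 23. The number of arrays limits the precision.

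Myc is a basic helix-loop-helix leucine zipper protein that binds DNA as a dimer with Max, most tightly at the E-box CACGTG. It is known in fibroblasts for raising genes of ribosome production, nucleotide synthesis and the entry into S phase. It also lowers many genes, partly through Miz1 and other promoter-bound factors, and it feeds back on the endogenous Myc gene.

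WB fibroblasts with c-myc differed from those with empty vector in 3511 genes, 27.0% of those tested. Of these, 1626 were higher (12.5%) and 1885 lower (14.5%). The genes that moved at least 2-fold were mostly falls, with 120 higher (0.922%) and 425 lower (3.26%). The 12 largest rises and 12 largest falls were taken from called genes whose 3 c-myc and 3 empty arrays did not overlap. The 12 rises held Egr3, Junb, Fos and Egr2, genes of the immediate response to growth factors. Beside them stood genes of unlike functions such as Dyrk3 and Ydjc. The 12 largest falls held the matrix genes Dcn, Smoc2 and Ccn5, the morphogen Bmp4 and the receptor Pdgfra, beside others such as the amino acid carrier Slc1a6 and the peptide precursor Nts. The median change over all 13018 genes was 0.03. Signals of the 3 c-myc and 3 empty arrays did not overlap in 5820 genes (44.7%), which included 3448 of the 3511 called. Across probe sets, arrays of the same WB group correlated at 0.967 to 0.975, and no array stood apart.

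**Figure D1:**
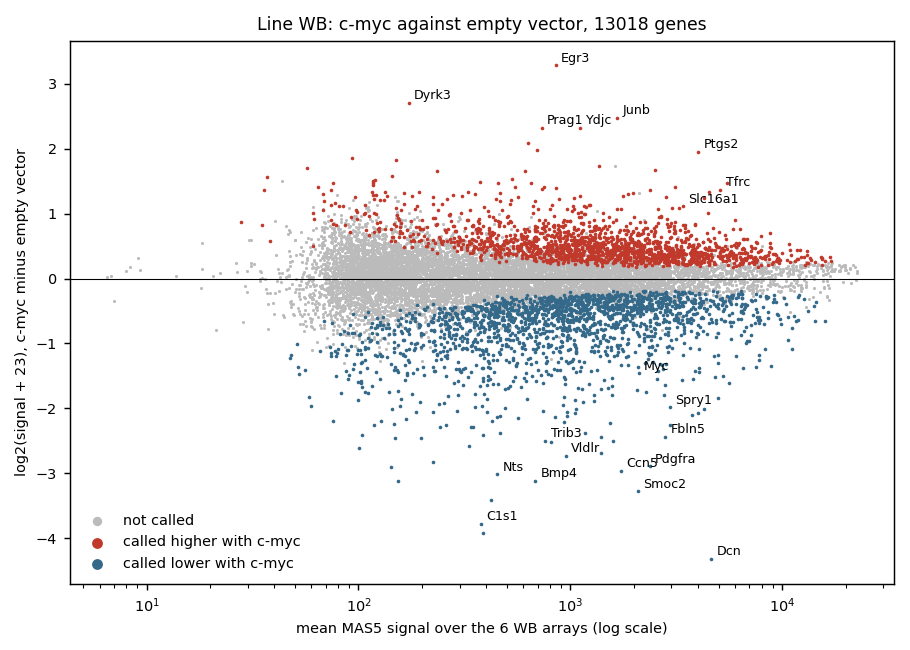
Each point is 1 of the 13018 genes, with its mean MAS5 signal over the 6 WB arrays on the horizontal log axis and its change in log2(signal + 23), c-myc minus empty vector, on the vertical axis. Red points are the 1626 genes called higher, blue points the 1885 called lower, and the falls reach further, to -4.32 for Dcn against 3.28 for Egr3.

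The promoter letters below were read from RefSeq entries on build GRCm38.p6, which cover 10489 of the tested genes. They are shown for 7 genes whose values are described further on and whose 250 bases before the start hold the letters of a known binding motif. Searches covered both strands of those 250 bases, and each window is 60 bases on the gene's own strand. The match nearest the gene start is in capitals, and any further match in the window is left in lower case. CACGTG, the E-box bound by Myc and Max, was in the promoters of a lactate carrier and a heat shock protein, both higher with c-myc:
Slc16a1, chr3:104638437-104638496, + strand: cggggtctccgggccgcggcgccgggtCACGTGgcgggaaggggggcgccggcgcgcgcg
Hsph1, chr5:149636316-149636375, - strand: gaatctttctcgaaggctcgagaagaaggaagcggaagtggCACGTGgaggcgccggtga
The letters TGATGNAA, of the kind bound by Atf4 with a partner, were in 4 genes of the amino acid response, all lower with c-myc. The capitals show them as they read on the opposite strand, and Slc7a11 also holds them on its own strand, in lower case:
Chac1, chr2:119351023-119351082, + strand: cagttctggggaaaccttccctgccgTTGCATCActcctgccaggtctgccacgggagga
Vldlr, chr19:27216794-27216853, + strand: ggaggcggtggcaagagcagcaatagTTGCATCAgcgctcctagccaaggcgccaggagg
Slc7a11, chr3:50443627-50443686, - strand: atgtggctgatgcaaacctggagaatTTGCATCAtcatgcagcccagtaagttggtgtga
Nupr1, chr7:126625547-126625606, - strand: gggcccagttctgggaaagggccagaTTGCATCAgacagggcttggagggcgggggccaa
The CArG box, the motif of serum response factor, was in the promoter of Dusp5, a nuclear ERK phosphatase that was higher with c-myc. A further CArG box, in lower case, lies directly before the one in capitals:
Dusp5, chr19:53529048-53529107, + strand: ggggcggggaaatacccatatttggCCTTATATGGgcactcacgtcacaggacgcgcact

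These matches are descriptions of letters and not measured binding. CACGTG was found in 155 of 1349 promoters of genes called higher (11.5%) and in 140 of 1507 promoters of genes called lower (9.29%), with 9.56% over all promoters searched. Among called genes that moved at least 2-fold, 8 of 83 promoters of those higher (9.64%) and 27 of 315 of those lower (8.57%) held it. The listed genes of ribosome biogenesis held it in 3 of 38 promoters (7.89%). For TGATGNAA, 7 of 23 promoters of the listed Atf4 targets held it, and 2.53% of all promoters did. A CArG box was found in 10 of 31 promoters of the listed contractile genes and in 1.43% of all promoters. It was in 1 of 16 promoters of the ERK feedback list, to which Dusp5 belongs, and in 1.33% of those of genes called higher.

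The probe set for mouse Myc was examined first, as the vector carries the human gene. It had signals of 1187, 896 and 1276 in c-myc cells, against 2908, 3020 and 3335 in empty vector cells. The groups did not overlap, and the change was -1.46 (SE 0.14, adjusted p = 8.8e-08). Whether this probe set also binds the human transgene was not tested, so its signal cannot be read as the endogenous gene alone, and the level of the transgene was not analysed here. The signal's change was -3.87 in WA and -2.66 in WC, and the WB effect differed from the mean of theirs by 1.81 (adjusted p = 2.6e-07). Unequal binding of the transgene in the 3 lines cannot be told apart from unequal change of the mouse gene. Of 18 tested members of the Myc, Max and Mxd network, 3 were higher and Myc alone was lower. Over all genes 12.5% were higher and 14.5% lower. The median change of the network was 0.14. Mxi1, a Max partner that opposes Myc, rose by 0.80. Bin1, which binds Myc, rose by 0.48. Mlxip, a glucose-responsive relative of Myc, rose by 0.36, a call that was lost in each of the 6 fits that left out 1 WB array (adjusted p up to 0.094). Max itself averaged 824 ± 145 in c-myc cells and 573 ± 71.9 in empty vector cells (SD, n = 3 each) and was not called. The relatives Mycn, Mycl, Mxd1, Mxd3, Mxd4, Mnt and Mga were not called either.

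The immediate early genes, transcription factors that are switched on within minutes of growth factor or serum stimulation, stood high in WB cells with c-myc. Of 27 tested members of the AP-1 and immediate early list, 19 were higher and 2 lower, against 12.5% and 14.5% of all genes. Their median change was 0.94, and 0.03 over all genes. Egr3, a zinc finger factor downstream of ERK and calcium signals, had signals of 1496, 1595 and 1607 in c-myc cells, against 126, 144 and 151 in empty vector cells. The change of 3.28 (SE 0.22, adjusted p = 2.7e-10) was the largest rise among all called genes. A second probe set of Egr3 changed by 1.15.

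Junb, an AP-1 subunit, had signals of 3056, 2676 and 2738 in c-myc cells, against 467, 459 and 537 in empty vector cells, a change of 2.48 (SE 0.18, adjusted p = 5.1e-10). Fos, which pairs with Jun proteins, had signals of 887, 1132 and 1103 in c-myc cells, against 244, 207 and 227 in empty vector cells, a change of 2.09 (SE 0.25, adjusted p = 1.6e-06). Egr2, a relative of Egr3, averaged 1127 ± 133 in c-myc cells and 271 ± 50.3 in empty vector cells (SD, n = 3 each), a rise of 1.98. Among the more abundant members, Egr1 rose by 1.34, to 6465 ± 489 in c-myc cells against 2542 ± 251 in empty vector cells, and Fosl1, the late AP-1 subunit known as Fra-1, rose by 1.25, to 6008 ± 180 against 2522 ± 204 (SD, n = 3 each). Phlda1, a pleckstrin homology protein induced by growth factors, rose by 1.47. The 2 members that fell were Klf4, at -1.80, and Klf2, at -1.08, both zinc finger factors associated with quiescence.

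The WA and WC lines did not share this rise. The list's median change was -0.50 in WA and -0.48 in WC. In the test of the difference between the WB effect and the mean effect of WA and WC, 20 of the 27 genes were more positive in WB and none more negative, against 5.22% and 5.03% of all genes. For Egr3 the difference was 4.09 (SE 0.27, adjusted p = 1e-09), the most positive of all genes called. Egr3 averaged 63.8 ± 10.9 in WA c-myc cells, against 145 ± 67.7 in WA empty vector cells, and 137 ± 34.4 in WC c-myc cells, against 243 ± 73.9 in WC empty vector cells (SD, n = 3 each). The 3 empty vector lines therefore stood at like levels of Egr3, and WB with c-myc stood apart from all of them. Junb differed by 2.84, Fos by 2.82, Egr2 by 3.14, Egr1 by 2.25, Phlda1 by 2.32 and Fosl1 by 1.20. Fosl1 was the one of these 6 that also rose in WC, by 0.48.

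**Figure D2:**
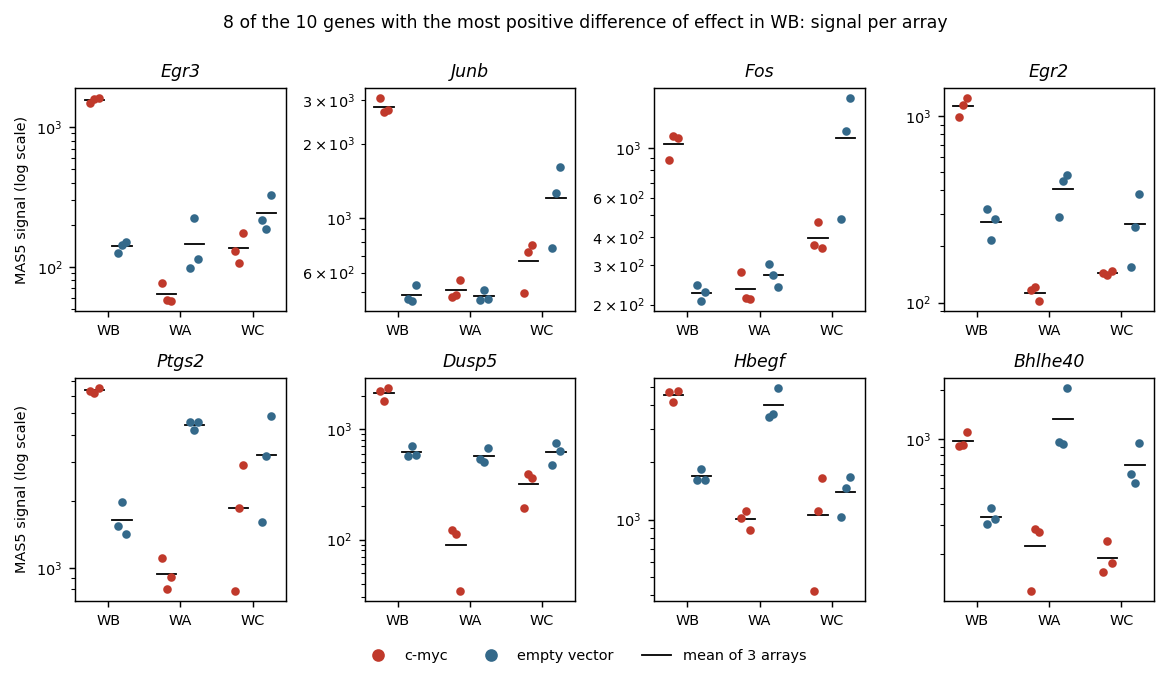
MAS5 signal per array on log axes that differ between panels, for 8 of the 10 genes with the most positive difference of the c-myc effect in WB (Stmn2 and Rtp4, near the added 23 in WB, are not drawn), with c-myc (red) left of empty vector (blue) in lines WB, WA and WC and a bar at the mean of 3 arrays. In WB the 3 c-myc arrays lie above the 3 empty arrays in each of these 8 panels, whereas the c-myc mean lies above the empty mean in WA for Junb alone and in WC for none.

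Genes that feed back on ERK, the kinase upstream of many immediate early genes, moved in both directions. Of 23 tested members of that list, 10 rose and 5 fell, against 12.5% and 14.5% of all genes. The median change was 0.10, against -0.96 in WA and -0.39 in WC. Dusp5, whose CArG boxes are shown above, had signals of 2191, 1782 and 2361 in c-myc cells, against 572, 705 and 579 in empty vector cells. Its change was 1.73 (SE 0.27, adjusted p = 3.3e-05), and its effect differed from that of WA and WC by 3.45. Errfi1, an inhibitor of the EGF receptor, rose by 1.67 and differed by 2.42. Dusp9, a cytoplasmic ERK phosphatase, rose by 1.48, and its change was 1.84 in WA and 1.52 in WC. Hbegf, an EGF receptor ligand, rose by 1.41 and differed by 2.66. The largest fall was that of Spry1, an inhibitor of receptor tyrosine kinase signalling, at -1.98, which differed by -1.21 from the other lines. The count of falls was 3 in place of 5 in 3 of the 6 fits that left out 1 WB array: c-myc replicate 1, empty replicate 2 or empty replicate 3. In the test of the difference, 10 of the list were more positive in WB and 1 more negative. Over all genes the shares were 5.22% and 5.03%.

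Several other genes outside these lists led the rises. Ptgs2, the inducible cyclooxygenase, had signals of 6344, 6192 and 6524 in c-myc cells, against 1538, 1977 and 1420 in empty vector cells. This rise of 1.95 (SE 0.32, adjusted p = 5.7e-05) stood beside a change of -2.22 in WA and -0.84 in WC, and the effects differed by 3.48. Prag1, a pseudokinase of the cytoskeleton, rose by 2.32 and differed by 2.14. Ydjc, a sugar deacetylase homologue, rose by 2.32 in WB, 1.80 in WA and 2.12 in WC. Dyrk3, a kinase of the DYRK family, rose by 2.71 in WB, 1.61 in WA and 1.76 in WC. Dcaf4, a cullin ligase receptor, rose by 1.82, with 2.23 in WA and 0.28 in WC. Efhd1, a mitochondrial calcium-binding protein, rose by 1.71 but lay near the added 23 in empty vector cells, at 14.7 ± 10.2 (SD, n = 3). Rimbp3 rose by 1.85, with 1 c-myc array (287) above the other two (97.5 and 102). Tfrc, the transferrin receptor and a known Myc target, rose by 1.36, to 7350 ± 121 in c-myc cells, against 2846 ± 165 in empty vector cells (SD, n = 3 each).

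Most genes of ribosome production were higher in WB cells with c-myc, by small amounts. Of 43 tested genes of RNA polymerase I and ribosome biogenesis, 35 were higher and none lower, against 12.5% and 14.5% of all genes, with a median change of 0.49. Polr1b, the second largest subunit of RNA polymerase I, had signals of 1363, 1286 and 1320 in c-myc cells, against 608, 634 and 604 in empty vector cells, a change of 1.08 (SE 0.13, adjusted p = 1.4e-06). The groups were well apart. The processing factors Wdr43, Imp4 and Nop16 rose by 0.84, 0.82 and 0.80, and the abundant nucleolar protein Ncl by 0.33. The medians were 0.61 in WA and 0.90 in WC. In WB, 5 of the 43 genes were more negative and 1 more positive, against 5.03% and 5.22% of all genes. Of 26 cytosolic ribosomal proteins, 4 rose, a share near the 12.5% of all genes: Rpl14 by 0.41, Rpl22 by 0.30, Rpl8 by 0.27 and Rpl7 by 0.25. Another probe set of Rpl22 changed the other way, by -0.43. The calls of Rpl7 and Rpl8 were each lost in 5 of the 6 fits without 1 WB array (adjusted p up to 0.084 and 0.196). Of 21 translation factors, 8 were higher and 2 lower, against 12.5% and 14.5% of all genes. Eef1e1, a scaffold of the tRNA synthetase complex, rose by 0.52, the eIF4E inhibitor Eif4ebp2 by 0.46 and the initiation factor subunit Eif3b by 0.40. The 2 falls were Eif4ebp1, a relative of Eif4ebp2, at -0.68, and Eif3c at -0.30.

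Nuclear genes for mitochondrial proteins were higher in part. Among 42 genes for mitochondrial ribosomes, protein import and mitochondrial chaperones, 26 rose and none fell, against 12.5% and 14.5% of all genes. Their median change was 0.37. Mrps5 rose by 0.76, Timm9 by 0.65, Mrpl45 by 0.55 and Timm8a1 by 0.54. In 11 of the 42 the effect was more negative in WB than in WA and WC, and in none more positive. Over all genes the shares were 5.03% and 5.22%. Of 41 oxidative phosphorylation genes, 12 rose and 1 fell, against 12.5% and 14.5% of all genes. The rise of Atp5a1, the catalytic core's alpha subunit of ATP synthase, was 0.48, that of Sdhd 0.40 and that of Uqcrfs1 0.38. The call of Sdhd was lost in 4 of the 6 fits without 1 WB array (adjusted p up to 0.129). Uqcrq was the fall, at -0.36, and the mean of its probe sets changed by 0.20 instead. The 12 rises were 5 to 6 where c-myc replicate 1, c-myc replicate 2, empty replicate 1 or empty replicate 3 was left out.

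Of 28 nucleotide synthesis genes, 17 rose and 1 fell, against 12.5% and 14.5% of all genes. Their median change was 0.33. Prps1, which makes the ribose donor of purine and pyrimidine rings, rose by 0.86, to 3337 ± 122 in c-myc cells, against 1830 ± 95.5 in empty vector cells (SD, n = 3 each). The purine enzymes Gart and Ppat rose by 0.82 and 0.70. Cad, the first enzyme of pyrimidine synthesis and a textbook Myc target, rose by 0.69, less than in WA (0.85) and WC (1.32), and differed by -0.39 (adjusted p = 0.041). That difference was not called in 5 of the 6 fits without 1 WB array. The member that fell was Cmpk1, a pyrimidine nucleotide kinase, at -0.41.

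Serine, folate and polyamine genes split, with 7 of 19 higher and 5 lower, against 12.5% and 14.5% of all genes. Mthfd1, a folate enzyme of the cytosol, rose by 0.70, and Odc1, which starts polyamine synthesis and is a known Myc target, rose by 0.65, to 9753 ± 424 in c-myc cells, against 6199 ± 384 in empty vector cells (SD, n = 3 each). Psph, the last enzyme of serine synthesis, fell by 1.36, to 1154 ± 100 in c-myc cells, against 3003 ± 335 in empty vector cells. Its change was -0.50 in WA and 0.22 in WC, and the difference of -1.22 was called (adjusted p = 2.9e-06). Aldh1l2, a mitochondrial folate enzyme, fell by 1.80.

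Of 28 genes of sterol and fatty acid synthesis, 19 rose and none fell, against 12.5% and 14.5% of all genes. Their median change was 0.45. Idi1, of the isoprenoid pathway, rose by 0.83, the fatty acid elongase Elovl6 by 0.78, Mvd by 0.73 and the fatty acid synthase Fasn by 0.73. The medians were 0.61 in WA and -0.18 in WC. Srebf2, the factor that drives sterol genes, averaged 3395 ± 584 in c-myc cells and 4300 ± 333 in empty vector cells (SD, n = 3 each) and was not called. Of 21 genes of glycolysis and lactate export, 5 rose and none fell, against the same 12.5% and 14.5%. Slc16a1, the lactate and pyruvate carrier whose E-box is shown above, had signals of 4757, 4789 and 4387 in c-myc cells, against 2092, 2091 and 2217 in empty vector cells, a change of 1.11 (SE 0.09, adjusted p = 5.1e-09). Its groups did not overlap, and its change was 1.29 in WA and 1.63 in WC. Pfkfb3, which activates phosphofructokinase, rose by 0.88, the hexokinase Hk2 by 0.56, the lactate dehydrogenase Ldha by 0.44 and the glucose transporter Slc2a1 by 0.28. The call of Slc2a1 was lost in 5 of the 6 fits without 1 WB array (adjusted p up to 0.184). Other probe sets of Slc2a1 that passed the filter changed by 0.44 and 0.45. Among 22 hypoxia-inducible genes outside glycolysis, 6 rose and 6 fell, against 12.5% and 14.5% of all genes. Angptl4, a lipase inhibitor, rose by 1.59, Bhlhe40, a transcriptional repressor, by 1.47 and the carbonic anhydrase Car12 by 1.22, whereas Epas1, known as HIF-2 alpha, fell by 1.97, to 11.9 ± 12.5 in c-myc cells, against 108 ± 0.591 in empty vector cells (SD, n = 3 each).

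Of 19 chaperonin and heat shock genes, 13 rose and 2 fell, against 12.5% and 14.5% of all genes. Hsph1, a nucleotide exchange factor for Hsp70 and the second gene shown with an E-box, had signals of 4036, 3941 and 4052 in c-myc cells, against 1752, 1693 and 1543 in empty vector cells. The change was 1.26 (SE 0.08, adjusted p = 1.6e-10). Hspa4 rose by 0.44 and the chaperonin subunit Cct3 by 0.43. The 2 falls were Cryab, a small heat shock protein, at -1.70, and Hspa1b, an inducible Hsp70, at -0.39, whose call was lost in 4 of the 6 fits without 1 WB array (adjusted p up to 0.089).

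Cell cycle genes were called in part. Among 42 tested genes of DNA replication and G1/S, 14 were higher and none lower, against 12.5% and 14.5% of all genes. The other 28 were not called, and the median change of the list was 0.20. Cdc6 and Orc1, which license replication origins, rose by 1.26 and 0.91, the cyclin Ccne1 by 0.79 and the phosphatase Cdc25a by 0.75. Cdc6 had signals of 689, 812 and 934 in c-myc cells, against 305, 372 and 297 in empty vector cells, with no overlap. Among 42 genes of G2/M and mitosis, none was higher and 10 were lower, against 12.5% and 14.5% of all genes, with a median of -0.11.

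Nusap1, a spindle protein, had signals of 1954, 2089 and 2006 in c-myc cells, against 3011, 3125 and 2948 in empty vector cells, a change of -0.58. The chromosomal passenger Incenp and the mitotic kinesin Kif11 both fell by 0.46, and the proliferation marker Mki67 fell by 0.44. The call of Kif11 was lost without c-myc replicate 3 (adjusted p = 0.059), and that of Incenp in 3 of the 6 fits without 1 WB array (adjusted p up to 0.163). Other probe sets of Incenp that passed the filter changed by -0.07 and 0.10. The count of 10 mitotic falls was 5 without c-myc replicate 3 and 6 without empty replicate 1. In WA and WC the mitotic list had medians of 0.29 and 0.44, and the replication list 0.57 and 0.58. In the test of the difference, 21 of the 42 mitotic genes and 15 of the 42 replication genes were more negative in WB, against 5.03% of all genes, and none of either list was more positive. Kif11 differed by -1.04, Incenp by -0.90, Nusap1 by -0.88 and Mki67 by -0.62. Kif11 averaged 1341 ± 106 in WB c-myc cells, against 1844 ± 45.9 in WB empty vector cells, 1676 ± 141 in WA c-myc cells, against 1088 ± 268 in WA empty vector cells, and 1689 ± 129 in WC c-myc cells, against 1162 ± 51.8 in WC empty vector cells (SD, n = 3 each). WB with empty vector thus had the highest Kif11 of the 3 empty vector lines.

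Of 21 cyclins, Cdk genes and Cdk inhibitors, 3 rose, near the 12.5% of all genes, and 7 fell, against 14.5%. The inhibitors Cdkn2d, Cdkn1c and Cdkn2b fell by 1.53, 0.94 and 0.93, and the pocket protein Rbl1 fell by 0.75. The call of Cdkn1c was lost in 5 of the 6 fits without 1 WB array (adjusted p up to 0.096). For Cdkn2d, signals of 824, 748 and 802 in c-myc cells stood against 2354, 2366 and 2288 in empty vector cells, and the effect differed from that of WA and WC by -1.06. Cdk4 rose by 0.20 and Ccnd2 fell by 0.30, and each of these calls was lost in 5 of the 6 fits without 1 WB array (adjusted p up to 0.174 and 0.140). Other probe sets of Cdk4 that passed the filter changed by 0.10 and 0.12, and those of Ccnd2 by -0.22 to -0.98. Ccnd1, Cdkn1a and Cdkn2a were not called in WB, with changes of -0.28, 0.42 and -0.34. The 7 falls were 4 without c-myc replicate 1, c-myc replicate 3 or empty replicate 3.

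Of 28 p53 targets, 6 were higher, 7 lower and 15 not called, against 12.5% higher and 14.5% lower over all genes. Mdm2, the p53 ubiquitin ligase, rose by 0.87, to 2054 ± 272 in c-myc cells, against 1114 ± 150 in empty vector cells (SD, n = 3 each), and differed from WA and WC by 0.77. Pmaip1, the BH3-only protein known as Noxa, rose by 1.34 and differed by 2.58. Gadd45a fell by 1.80, Sesn2 by 1.37 and Trp53inp1 by 1.17. Of 14 genes of the Bcl2 family, Pmaip1 rose and Bcl2l2, a survival factor, fell by 0.47. Where its probe sets were averaged, Bcl2l2 changed by 0.33.

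Targets of Atf4, the transcription factor of the integrated stress response that is translated when amino acids are short, mostly fell in WB. Of 28 tested, 19 were lower and 1 higher, against 14.5% and 12.5% of all genes, with a median of -0.69. Vldlr, a lipoprotein receptor, had signals of 202, 276 and 220 in c-myc cells, against 1746, 1487 and 1770 in empty vector cells, a change of -2.73 (SE 0.18, adjusted p = 1.7e-10). Trib3, a pseudokinase that feeds back on Atf4, had signals of 221, 210 and 202 in c-myc cells, against 1377, 1075 and 1487 in empty vector cells, a change of -2.50. Both genes' groups were far apart. Slc7a3, a carrier of cationic amino acids, fell by 2.44, to 419 ± 38.8 in c-myc cells, against 2380 ± 111 in empty vector cells, and Chac1, which degrades glutathione, fell by 2.38, to 367 ± 76.8 against 1986 ± 139 (SD, n = 3 each). The other genes with a printed Atf4-type motif were Nupr1, a chromatin-binding stress protein, which fell by 1.87, and Slc7a11, the cystine carrier, which fell by 1.91. Nupr1 was added to the named genes for its motif, after its values were seen. Atf3 was the gene that rose, by 1.26. It also belongs to the immediate early list, and its call was lost in 4 of the 6 fits without 1 WB array (adjusted p up to 0.118). Atf4 itself averaged 8941 ± 1097 in c-myc cells and 9603 ± 948 in empty vector cells (SD, n = 3 each) and was not called. Another probe set of Atf4 that passed the filter changed by -0.41.

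The fall of Atf4 targets was present in WA (median -0.56) and smaller in WC (-0.20). In WB it was more negative than in the other lines for 13 of the 28 genes and more positive for none, against 5.03% and 5.22% of all genes. Slc7a3 differed by -1.55, Slc7a11 by -1.49, Chac1 by -0.99 and Vldlr by -0.95. Of 19 aminoacyl-tRNA synthetases, the enzymes that load amino acids on tRNA and that are partly Atf4 targets, 10 fell and 2 rose. Over all genes 14.5% fell and 12.5% rose. Tars fell by 0.83, Aars by 0.75 and Yars by 0.70, whereas Farsa rose by 0.58 and Kars by 0.53. The median of this list was -0.28 in WB, -0.11 in WA and 0.24 in WC, with 6 genes more negative in WB, among them Tars (-0.50) and Yars (-0.49). Of 17 amino acid transporters, 9 fell and 3 rose, with 6 more negative in WB and 1 more positive. Slc1a6, a glutamate carrier, was below the added 23 with c-myc, at 11.0, 10.2 and 19.4, against 313, 287 and 279 in empty vector cells, and the glycine carrier Slc6a9 fell by 1.12.

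Of 24 genes of the endoplasmic reticulum and its unfolded protein response, 9 fell and none rose, against 14.5% and 12.5% of all genes. Dnajb9, a cochaperone, fell by 1.38, Xbp1 and Sel1l each by 0.88 and the oxidase Ero1a by 0.77, while Hspa5, the main chaperone of that compartment, changed by -0.18 and was not called. Other probe sets of Hspa5 that passed the filter changed by -0.48 and -0.26. No gene of this list differed from WA and WC. Among 25 antioxidant and glutathione genes, 6 rose and 4 fell, the falls at about the 14.5% of all genes and the rises above the 12.5%. Gstm2 fell by 1.43, Gpx7 by 0.82 and the quinone reductase Nqo1 by 0.62, and Gclm, of glutathione synthesis, rose by 0.61.

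Many extracellular matrix genes of the fibroblast were lower with c-myc. Dcn, which encodes the small proteoglycan decorin that coats collagen fibrils, had signals of 370, 433 and 444 in c-myc cells, against 8231, 7866 and 10256 in empty vector cells. The change of -4.32 (SE 0.37, adjusted p = 1.1e-08) was the largest fall of all called genes. Of 27 small proteoglycans and matricellular proteins, 16 fell and 1 rose, against 14.5% and 12.5% of all genes. Their median change was -1.04. Smoc2, a calcium-binding matricellular protein, had signals of 381, 336 and 397 in c-myc cells, against 3894, 3603 and 3876 in empty vector cells. Ccn5, a matricellular protein of the CCN family, fell by 2.97, to 377 ± 70.2 in c-myc cells, against 3084 ± 435 in empty vector cells (SD, n = 3 each). Lum, the proteoglycan lumican, fell by 2.20, and Tgfbi, a matrix protein induced by TGF-beta, was the rise, at 0.95.

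Of 33 collagens and collagen-processing genes, 24 fell and none rose, against 14.5% and 12.5% of all genes. Their median change was -0.64. The 4 largest falls were in minor collagens, with Col15a1 at -2.29, Col11a1 at -2.14, Col2a1 at -1.97 and Col8a2 at -1.93. Col1a1, the main fibrillar collagen, averaged 14683 ± 593 in c-myc cells and 18436 ± 690 in empty vector cells (SD, n = 3 each) and was not called. Another probe set of Col1a1 that passed the filter changed by -0.48. Of 24 genes of elastic fibres, fibronectin and laminins, 12 fell and none rose. Fbln5, which assembles elastic fibres, fell by 2.44, Lama4 by 2.08, Ltbp2 by 2.01 and Mfap5 by 1.76, and fibronectin, Fn1, changed by -0.28 and was not called. Another probe set of Mfap5 that passed the filter changed by only -0.23. In the test of the difference, 6 of the proteoglycan and matricellular genes were more positive in WB and 4 more negative. Over all genes the shares were 5.22% and 5.03%. For collagens the counts were 6 and 0, and for elastic fibres, fibronectin and laminins 3 and 0. The collagen median was -0.73 in WA and -0.86 in WC, and the proteoglycan median -1.04 in WA and -0.88 in WC.

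**Figure D3:**
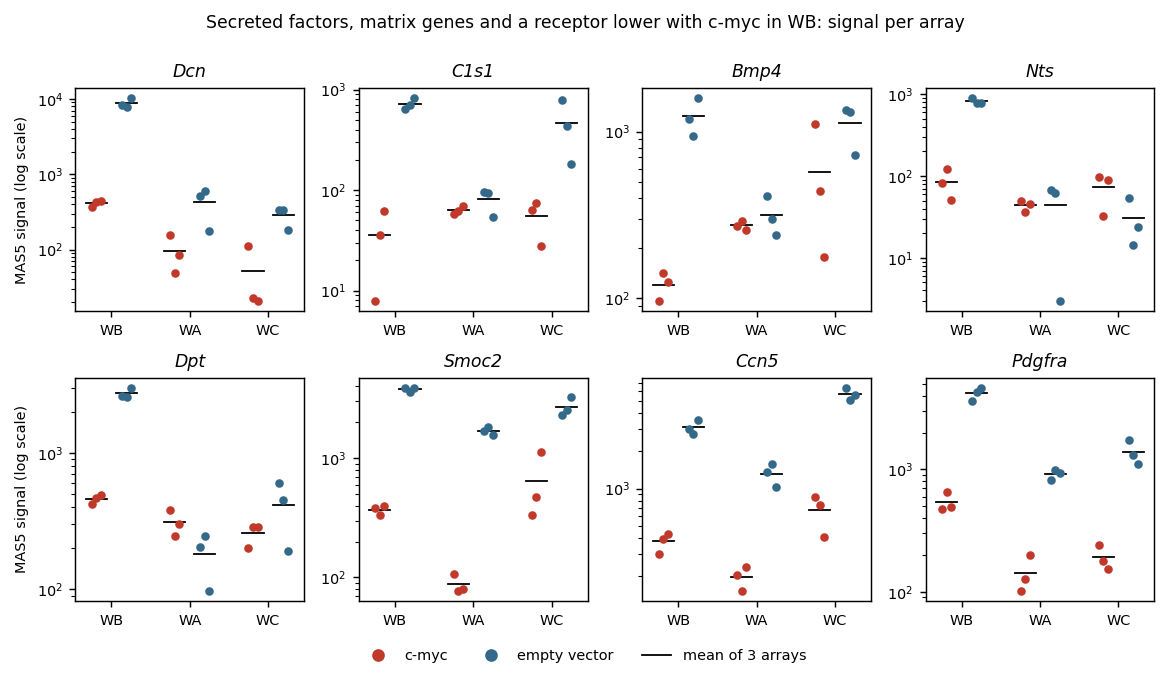
MAS5 signal per array on log axes that differ between panels, for 8 genes that fell in WB, with c-myc (red) left of empty vector (blue) in lines WB, WA and WC and a bar at the mean of 3 arrays. Dcn in WB averaged 416 with c-myc and 8784 with empty vector, and Nts and Dpt are high in WB empty vector cells and low in the other 5 groups.

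Genes that tie the cell to the matrix and remodel it were lower in part. Of 27 integrins, cadherins and adhesion receptors, 14 fell and 3 rose, against 14.5% and 12.5% of all genes. Itga8 fell by 2.25, Itga1 by 2.01, the neural cell adhesion molecule Ncam1 by 1.74 and the mesenchymal cadherin Cdh11 by 1.19. The rises were Itga3, at 1.13, Cdh3, at 0.53, and Itga5, the fibronectin receptor's alpha chain, at 0.29. The calls of Cdh3 and Itga5 were lost in 4 and 5 of the 6 fits without 1 WB array (adjusted p up to 0.098 and 0.218). The effect on Itga5 differed by 1.36 from that of WA and WC, where it changed by -1.46 and -0.67. Of 30 extracellular proteases and inhibitors, 18 fell and 1 rose, the urokinase receptor Plaur, at 0.70, which differed by 1.50. The aggrecanase Adamts5 fell by 1.52, the protease inhibitors Reck and Timp3 by 1.48 and 1.35, and Mmp19 by 1.46.

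Of 34 contractile genes and targets of serum response factor, 15 fell and 2 rose, against 14.5% and 12.5% of all genes. The actins Acta1 and Actg2 fell by 1.63 and 1.44, leiomodin Lmod1 by 1.38 and the myosin light chain Myl9 by 1.08. The call of Lmod1 was lost without c-myc replicate 1 or empty replicate 1 (adjusted p up to 0.068). The 2 rises were Fhl2, a cofactor of serum response factor, at 0.48 and Srf, the factor itself, at 0.46. Both were more positive in WB than in WA and WC, by 0.76 and 0.51. So were 7 genes of the list in all, with 1 more negative, against 5.22% and 5.03% of all genes. The 15 falls were 8 or 9 where c-myc replicate 2, c-myc replicate 3, empty replicate 2 or empty replicate 3 was left out.

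Of 37 growth factor receptors and ligands, 16 fell, 1 rose and 20 were not called, against 14.5% lower and 12.5% higher over all genes. Pdgfra, a receptor for platelet-derived growth factor and a fibroblast marker, had signals of 479, 656 and 498 in c-myc cells, against 3648, 4269 and 4638 in empty vector cells. The change was -2.90 (SE 0.19, adjusted p = 1.7e-10), and it was -2.53 in WA and -2.72 in WC. The insulin-like growth factor binder Igfbp3 fell by 2.28, the ligand Pdgfd by 1.75 and Gas6, a ligand of TAM receptors, by 1.42. Vegfa was the rise, at 0.42, against -1.26 in WA and -0.39 in WC, a difference of 1.24 (adjusted p = 2.6e-07).

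Of 25 Wnt pathway genes, 12 fell and none rose, led by the secreted antagonists Dkk2 (-2.24) and Sfrp1 (-1.51), the receptor Fzd8 (-1.98) and the agonist Rspo2 (-1.57). Of 23 genes of the BMP response, 4 fell and 2 rose, close to the 14.5% and 12.5% of all genes. Bmp4, the ligand, had signals of 96.0, 141 and 125 in c-myc cells, against 1193, 939 and 1587 in empty vector cells, a change of -3.12 (SE 0.39, adjusted p = 2.8e-06). The antagonist Fst fell by 2.07 and the inhibitory Smad6 by 1.08, while Id1, a target of BMP signals, rose by 1.01, and Smad1, which carries those signals, by 0.30. Bmp4 changed by -0.17 in WA and -1.24 in WC, and the WB effect differed by -2.41 (adjusted p = 0.0018).

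Of 25 genes of the cytokine, STAT3 and oncostatin list, 4 were higher and 8 lower, against 12.5% and 14.5% of all genes. The signal suppressor Socs2 fell by 1.63, and the oncostatin receptor chains Osmr and Il6st fell by 1.33 and 1.32. Of 13 chemokines, 4 fell and none rose: Cxcl5 by 0.96, Cxcl12 by 0.65, Ccl7 by 0.55 and Ccl2 by 0.48. The calls of Ccl7 and Ccl2 were lost in 5 and 6 of the 6 fits without 1 WB array (adjusted p up to 0.097 and 0.184). Cxcl12, the ligand of Cxcr4, had a much larger fall in WA (-2.82) and WC (-2.21), a difference of 1.86 (adjusted p = 1.3e-07). Of 29 interferon response genes, Irf7 rose, by 1.14, and Irgm1 and Tapbp fell, by 0.60 and 0.52. That is 1 and 2 of 29, below the shares over all genes. The call of Irf7 was lost without c-myc replicate 3 or empty replicate 3 (adjusted p up to 0.133), and that of Tapbp without c-myc replicate 2 or empty replicate 3 (up to 0.072). In the interferon list 7 genes were more positive in WB and 1 more negative, against 5.22% and 5.03% of all genes.

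Over all genes, the c-myc effects of WB correlated with those of WA at Pearson's r = 0.529 and with those of WC at 0.567 across genes, which are not independent replicates. WA and WC correlated at 0.602. The lines within a correlation share no arrays, but the correlations share arrays with one another. Of the 3511 genes called in WB, 1857 were also called in the same direction in both WA and WC, and 614 were called in neither. The effect in WB differed from the mean of WA and WC in 1334 genes (10.2%), of which 679 were more positive (5.22%) and 655 more negative (5.03%). In 211 of these (1.62%), WB was called with a sign opposite to both other lines, 118 higher (0.906%) and 93 lower (0.714%). The percentages in this paragraph are shares of all 13018 genes tested.

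**Figure D4:**
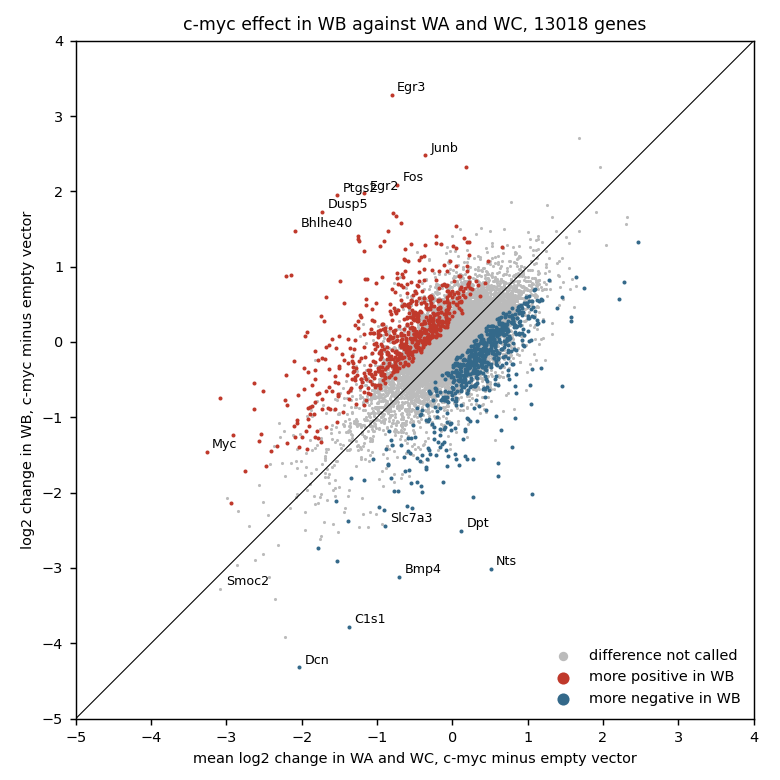
Each point is 1 of the 13018 genes, with the mean log2 change of WA and WC (c-myc minus empty vector) on the horizontal axis and the change in WB on the vertical axis, and the line marks equal effects. Red points are the 679 genes more positive in WB, led by Egr3, and blue points the 655 more negative, led by Nts.

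The 10 most positive differences were Egr3, Bhlhe40 (3.56), Ptgs2, Dusp5, Egr2, Stmn2 (3.08), Rtp4 (3.03), Junb, Fos and Hbegf. Bhlhe40 had signals of 902, 918 and 1103 in WB c-myc cells, against 304, 380 and 323 in WB empty vector cells, and it fell in WA (-2.43) and WC (-1.75). Stmn2, a microtubule regulator of neurons, and Rtp4, an interferon-induced chaperone, were near the added 23 in WB, at averages of 42.2 and 63.3 in c-myc cells, against 13.4 and 17.9 in empty vector cells. Their differences rest on falls in the other lines, such as Stmn2 in WC, at 890 ± 189 in c-myc cells, against 4831 ± 273 in empty vector cells (SD, n = 3 each). Another probe set of Stmn2 that passed the filter changed the other way in WB, by -0.60.

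The 10 most negative differences were Nts (-3.52), Epcam (-3.08), Dpt (-2.63), Bmp4, C1s1 (-2.41), Serpini1 (-2.38), Serpinb6b (-2.34), Dcn (-2.29), Ahrr (-2.22) and 4930488L21Rik (-2.18). The calls of Epcam and 4930488L21Rik were lost in 4 and 3 of the 6 fits without 1 WB array (adjusted p up to 0.126 and 0.059). Nts, the precursor of neurotensin, had signals of 81.9, 120 and 51.0 in WB c-myc cells, against 891, 780 and 777 in WB empty vector cells. In WA and WC it averaged 43.7 and 73.2 in c-myc cells, against 43.7 and 30.8 in empty vector cells (n = 3 each). The WB empty vector cells were thus the one group of the 6 with a high signal. Dpt, the matrix protein dermatopontin, fell by 2.51 in WB, to 459 ± 35.5 in c-myc cells, against 2723 ± 233 in empty vector cells, and its empty vector level was 182 ± 75.7 in WA and 414 ± 206 in WC (SD, n = 3 each). Serpinb6b, a serine protease inhibitor, averaged 360 ± 18.6 in WB c-myc cells, against 1575 ± 138 in WB empty vector cells, and 12.3 to 50.6 in the WA and WC groups.

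C1s1, the complement protease C1s, fell by 3.78 in WB, at 7.84, 35.9 and 62.6 in c-myc cells, against 644, 699 and 820 in empty vector cells. It changed by -0.25 in WA and -2.50 in WC. Dcn, which changed by -1.86 in WA and -2.21 in WC, had an empty vector level of 430 ± 221 in WA and 285 ± 87.6 in WC, far under the 8784 ± 1288 of WB (SD, n = 3 each). The remaining large falls of WB were U90926 (-3.92), the hyaluronan-degrading Cemip (-3.41), Mamdc2 (-2.91) and Trp53inp2, an autophagy regulator (-2.82). For U90926, Cemip and Trp53inp2 the effect was not called different from that of WA and WC. For Mamdc2 the difference was -1.37, a call lost in 5 of the 6 fits without 1 WB array. The lowest of these c-myc levels lie under the added 23, so their folds are understated.

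The label of the cells was set against marker genes. Of 7 defining fibroblast markers, Col1a1, Col1a2, Col3a1, Thy1 and Vim had median signals between 8327 and 22489 in c-myc cells and between 13875 and 22065 in empty vector cells, while Pdgfrb and Pdgfra were lower, at 1247 and 498 in c-myc cells, against 3202 and 4269 in empty vector cells. The fibroblast markers summed to between 109092 and 117879 per c-myc array and between 138829 and 150994 per empty vector array. Of the 22 markers, 10 fell and 1 rose, against 14.5% and 12.5% of all genes. Snai2, a mesenchymal transcription factor, fell by 1.32, and its relative Snai1 rose by 1.09, to 4123 ± 229 in c-myc cells, against 1923 ± 42.9 in empty vector cells (SD, n = 3 each). Snai1 fell in WA (-0.69) and WC (-0.56), and the difference was 1.72 (adjusted p = 1e-09).

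Markers of other cell types were mostly low and not called. None of 9 macrophage and blood and none of 6 endothelial markers tested was called. The defining markers Ptprc, Pecam1, Cdh1, Myog and Adipoq did not pass the filter on low signal and had medians of at most 58.9 in c-myc cells and 47.9 in empty vector cells. Those that passed it were higher. The blood markers Csf1r and Adgre1 had medians of 605 and 176 in c-myc cells, against 403 and 116 in empty vector cells. Kdr, of endothelium, had 243 in c-myc cells and 299 in empty vector cells, and Sox10, of glia, 264 in c-myc cells and 170 in empty vector cells. Krt5, Gfap and Myod1 had 180, 164 and 141 in c-myc cells, against 182, 182 and 93.1 in empty vector cells. A MAS5 signal of this size does not by itself show that a gene is expressed. Of 8 epithelial markers, Epcam was called, at 358, 97.2 and 1022 in c-myc cells, against 728, 2506 and 1639 in empty vector cells. These groups overlapped, the arrays within each group spread widely, and the call was lost in 4 of the 6 fits without 1 WB array (adjusted p up to 0.273). Another probe set of Epcam did not pass the filter, at averages of 13.8 in c-myc cells and 17.1 in empty vector cells. Of 5 skeletal muscle markers, Acta1 fell, and of 7 neural and glial markers, Ncam1, Map2 (-1.02) and Tubb3 (-0.66) fell, the last with no call without c-myc replicate 3. The neural sum was 4072 to 4824 in c-myc arrays and 7298 to 7817 in empty vector arrays. The skeletal muscle sum was 842 to 1168 in c-myc arrays, against 1260.5 to 1593 in empty vector arrays. For adipocyte and chondrocyte markers it was higher with c-myc, at 2876 to 3159 against 2549 to 2588. The sums of macrophage and blood, endothelial and epithelial markers overlapped between the WB groups. Of 7 adipocyte and chondrocyte markers, Sox9 rose, by 1.06, and Col2a1 fell. In bulk RNA, fewer cells of a type and less RNA per cell cannot be told apart, and the part of any minor cell type in these results was not tested.

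Few Hox genes, the transcription factors of position along the body, were called. Of 20 tested, Hoxb7 rose by 1.11, Hoxa5 by 1.01, and Hoxd8 fell by 0.92, so 2 rose and 1 fell where 12.5% and 14.5% of all genes did. A second probe set of Hoxa5 changed the other way, by -0.69. The call of Hoxb7 was lost without c-myc replicate 3, its highest array, and that of Hoxa5 without c-myc replicate 1 or empty replicate 3. Of 3 sex chromosome genes tested, Xist rose by 0.55.

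**Figure D5:**
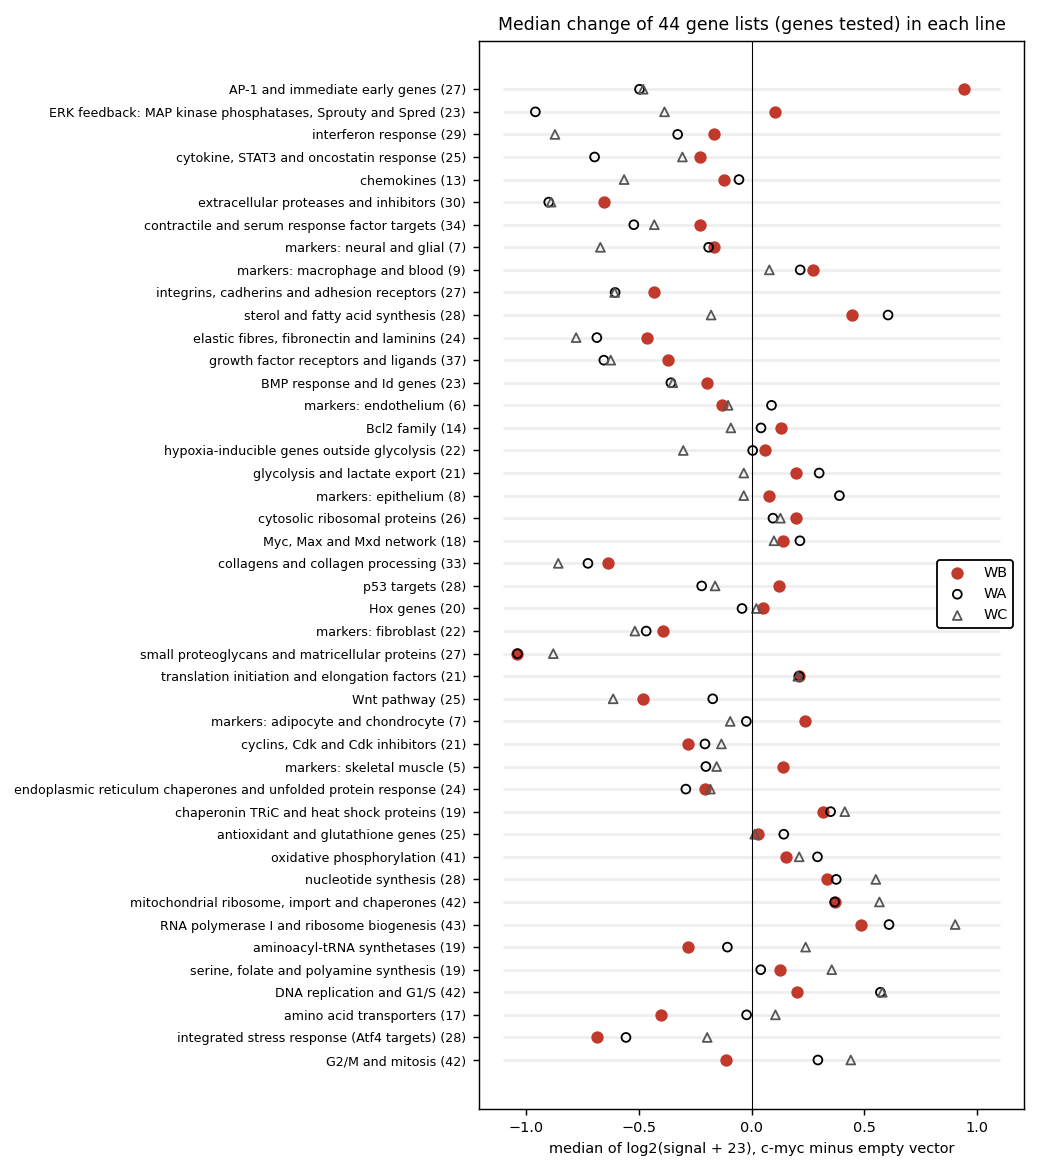
Median change in log2(signal + 23), c-myc minus empty vector, of each gene list in WB (red), WA (open circles) and WC (triangles), with the number of genes tested in brackets and lists ordered by their median difference. The immediate early list lies at 0.94 in WB, against -0.50 and -0.48 in WA and WC, and the mitotic list lies at -0.11, against 0.29 and 0.44.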

How the data were processed

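RNA of cells lysed in the dish was labelled as biotinylated cRNA and hybridised to Affymetrix mouse arrays. The authors deposited 1 MAS5 intensity per probe set and array, per the submitters' processing notes. The values are linear, and the 2% trimmed mean is 500 on each array. Of 45101 probe sets, 34945 were paired with 1 gene symbol, 932 with several and 9211 were not listed. A gene was represented by its brightest probe set on average, kept if the mean log2(signal + 23) lay above the 40th percentile. The 23 is the 20th percentile of all signals.

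All 26 arrays were fitted with limma 3.58.1 in R 4.3.3 (9 group means, intensity trend, 17 residual degrees of freedom), and p-values were adjusted by Benjamini-Hochberg over 13018 genes. The difference test is the WB effect minus the mean of the WA and WC effects. The fit was tested on simulated data.

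The arrays, comparisons and 45 gene lists were chosen with earlier results of these data known. Named genes are the 12 largest rises and 12 largest falls with non-overlapping arrays, up to 4 called and 2 uncalled genes per list, the 10 largest differences each way, the 6 called genes of at least 2-fold with the highest c-myc signal, and a fixed panel. Gapdh and Trp53 of the panel were not analysed here, and the panel genes Actb, Vim and Thbs1 were not called. Medians, counts and motifs are descriptions with no test. Alternatives are given at the end.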

Additional observations from a re-analysis of the deposited data

Results flagged for a closer look

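All results here were singled out because the c-myc effect in WB differed from the mean of the WA and WC effects at an adjusted p under 0.05 (limma). This held for 1334 genes. No explanation was tested.

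Among immediate early and ERK feedback genes the difference in log2(signal + 23) was 4.09 for Egr3, 2.84 for Junb, 2.82 for Fos, 3.14 for Egr2, 2.25 for Egr1, 2.32 for Phlda1, 1.20 for Fosl1, 3.45 for Dusp5, 2.42 for Errfi1, 2.66 for Hbegf and -1.21 for Spry1. For other genes that rose in WB the difference was 3.48 for Ptgs2, 3.56 for Bhlhe40, 2.14 for Prag1, 2.50 for Efhd1 and 2.27 for Angptl4. Most of these genes were named for the size of their WB change or difference, so their shared direction is not a further result. Of the 27 immediate early genes tested, 20 were more positive in WB and none more negative.

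The Myc probe set, whose binding of the human transgene was not tested, differed by 1.81. Cell cycle and p53 genes differed by -0.88 for Nusap1, -0.90 for Incenp, -1.04 for Kif11, -0.62 for Mki67, -1.06 for Cdkn2d, -0.79 for Rbl1, 0.64 for Ccnd1, 0.96 for Cdkn1a, 0.77 for Mdm2, 2.58 for Pmaip1, -0.98 for Gadd45a, -0.69 for Sesn2 and -1.16 for Trp53inp1. Of the 42 mitotic genes tested, 21 were more negative in WB and none more positive. In the 6 fits that each left out 1 WB array, the call of the difference was lost in 6 for Sesn2, 5 for Cdkn1a and 4 for Trp53inp1 (adjusted p up to 0.102, 0.125 and 0.150).

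Genes of biosynthesis and of the amino acid response differed by -0.39 for Cad, -0.45 for Aldh1l2, -1.22 for Psph, -0.50 for Tars, -0.49 for Yars, -0.39 for Eif4ebp1, -0.32 for Eif3c, -1.12 for Cryab, -0.58 for Hspa1b, -0.95 for Vldlr, -1.55 for Slc7a3, -0.99 for Chac1, -1.49 for Slc7a11 and -0.88 for Slc6a9. Slc2a1 differed by 0.46 in the other direction. Without 1 WB array the call was lost in 6 fits for Cryab, 5 for Cad, 4 for Eif4ebp1, 3 for Aldh1l2, 2 for Eif3c and Slc2a1 and 1 for Hspa1b (adjusted p up to 0.196).

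Matrix, adhesion and contractile genes differed by -2.29 for Dcn, -2.63 for Dpt, -1.66 for Lum, -1.37 for Mamdc2, 1.02 for Tgfbi, 1.36 for Itga5, 1.50 for Plaur, 0.76 for Fhl2, 0.51 for Srf and 1.72 for Snai1. The difference for Tgfbi was lost in all 6 fits without 1 WB array (adjusted p up to 0.092) and was -0.61 against WA alone, so its direction is not settled. Mamdc2 lost the call in 5 and Lum in 3 of those fits (adjusted p up to 0.116 and 0.076).

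Secreted signals, their receptors and immune genes differed by -2.41 for Bmp4, -1.25 for Fzd8, -1.28 for Sfrp1, -0.81 for Smad6, 0.82 for Id1, 1.24 for Vegfa, -0.77 for Socs2, 0.42 for Osmr, 1.86 for Cxcl12, -0.80 for Ccl2, 1.52 for Irf7, 0.62 for Irgm1, 3.03 for Rtp4 and -2.41 for C1s1. Further differences were -3.52 for Nts, -3.08 for Epcam, -2.38 for Serpini1, -2.34 for Serpinb6b, -2.22 for Ahrr, -2.18 for 4930488L21Rik, 3.08 for Stmn2 and 0.43 for Xist. Without 1 WB array the call was lost in 5 fits for Socs2, 4 for Irgm1 and Epcam, 3 for Irf7, Xist and 4930488L21Rik, 2 for Osmr and 1 for Ccl2 (adjusted p up to 0.161).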

How the results depend on the processing

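The count of 3511 genes called in WB was 3343 to 4203 under the alternatives that kept every array of the 2 groups, and 2773 to 3021 where 1 WB array was left out. The 1334 called differences became 1090 to 1400, and 899 to 1089 where 1 WB array was left out. Differences more positive in WB, 679, became 487 to 558 in the fits without 1 WB array. Those more negative in WB, 655, became 403 to 531, and the lowest of these, 403, came without empty replicate 3, which moved the count by more than 1.5 times. Genes higher numbered 1284 to 1398 and genes lower 1489 to 1623 in those fits.

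The labels do not say whether arrays of the same replicate number were paired. Deviations of same-numbered arrays from their group means correlated at -0.059, -0.039 and -0.139 in WB. The values were 0.073, -0.084 and 0.047 in WA, and 0.167, -0.008 and 0.212 in WC. With so few arrays they cannot settle whether arrays were paired. With the replicate number as a block within each line, 3481 genes were called in WB and 1257 differences, and no count moved by over 1.5 times.

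Of 204 named genes, 162 kept their direction and their side of the threshold in WB under every alternative run, and 45 of 77 named differences did. With the mean of all probe sets of a gene, the WB change was 0.20 for Uqcrq, 0.33 for Bcl2l2 and 0.011 for Srebf2, and the difference for Osmr was -0.071, each with its sign turned. Against WA alone, the difference for Tgfbi was -0.61. Probe sets of 1 gene therefore disagreed for these 4 genes, and WA and WC disagreed for Tgfbi. Signals near 23 are limited by the array's background, and folds of genes at that level are understated.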
